A study of Rattus norvegicus with 9 samples.

Results

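Chemokines, interleukins and their receptors were examined in aorta (thoracic) from rats whose mothers were diabetic (DMO, per the labels), set against rats of control mothers (CMO). The genes were taken by symbol: every array probe with a single gene symbol starting with Ccl, Cxcl, Ccr, Cxcr, Cx3c or Il and a digit, or with Tnfrsf. This gave 100 genes on 108 probes, of 9653 named genes on the array. They comprised 17 CC chemokines, 10 CXC and CX3C chemokines, 12 chemokine receptors, 24 interleukins, 25 interleukin receptors and 12 members of the TNF receptor superfamily. The count for interleukins includes the antagonist Il1rn, and that for interleukin receptors the soluble binding protein Il18bp. All 100 genes matched a RefSeq entry through their Entrez ID, with unchanged symbols.

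Each array compared RNA from 1 offspring of a diabetic mother with RNA from 1 offspring of a control mother on a 2-colour Agilent array. The 9 arrays came from 5 pairs of animals, named here by the number of the diabetic mother's offspring: 193, 194, 197, 199 and 220, against control offspring 189, 190, 191, 192 and 216 in that order. Among these 9 arrays, every pair except 194 has a dye swap, with the same 2 RNAs on exchanged dyes. Pair 194 has a single array here, with the DMO animal on Cy3. Strain, sex, age and litter of the animals, and how the mothers became diabetic, are not given in the labels used here. If pairs shared a litter, the p-values would be too small.

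Chemokines are small secreted proteins that draw leukocytes along a gradient through G protein-coupled receptors, and Cx3cl1 is made as a membrane-bound form on endothelium. Many interleukins signal through receptors coupled to JAK and STAT proteins or, in the interleukin 1 family, to NF-kappa B. Receptors of the TNF superfamily act on NF-kappa B and on cell death. In the vessel wall, smooth muscle, endothelial and adventitial cells make many of these signals, and resident or incoming macrophages both make and receive them.

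The deposited values are log ratios, 1 per probe and array, taken here as log2. Which group is on top of the ratio is not stated, so a positive value cannot be read as higher in the offspring of diabetic mothers; signs are given as deposited and would all turn together. The arrays with the DMO animal on Cy5 were taken as already turned to run the same way as the others, a step that no source used here records. Ratios hold no expression level, so whether a gene or a cell type marker was above background in the aorta could not be checked. In bulk tissue, fewer cells of a type and less RNA per cell cannot be told apart. Genes were named through a numbering of the probes that was itself chosen on these data. Across 44 pairs of probes of 1 gene that both varied over animals, the median correlation over the 5 pairs was 0.98 under it, against 0.39 in 14 probe pairs with the row numbers as deposited.

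Across all 19478 features (probes of 1 gene averaged, unnamed features kept), the 2 arrays of pair 199 correlated at r = -0.19. This compares with 0.18, 0.67 and 0.068 in pairs 193, 197 and 220. Across the features with a gene symbol, r was 0.16 for pair 199 and 0.28, 0.77 and 0.14 in pairs 193, 197 and 220. There pair 199 did not stand apart. Across the 100 cytokine genes, the 2 arrays correlated at r = -0.047 for pair 199, against 0.60 for pair 193, 0.68 for pair 197 and 0.36 for pair 220. Without the single gene Tnfrsf11b these were -0.087, 0.44, 0.66 and 0.17. The 2 arrays of a pair hold the same RNA, so these values describe how well a measurement was repeated. The 2 arrays had the same sign for 43, 68, 44 and 41 of the 100 genes in pairs 193, 197, 199 and 220, against 43.9%, 68.4%, 44.1% and 46.5% of all features. Most of the genes outside pair 197 thus did not keep their sign when the dyes were exchanged, and their share was close to that of all features. Outside pair 197, the large ratios that repeated were those of a few genes, as the plot of the 2 orientations shows. In pair 197 the repetition was broader, with r at 0.66 also without Tnfrsf11b.

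**Figure D1:**
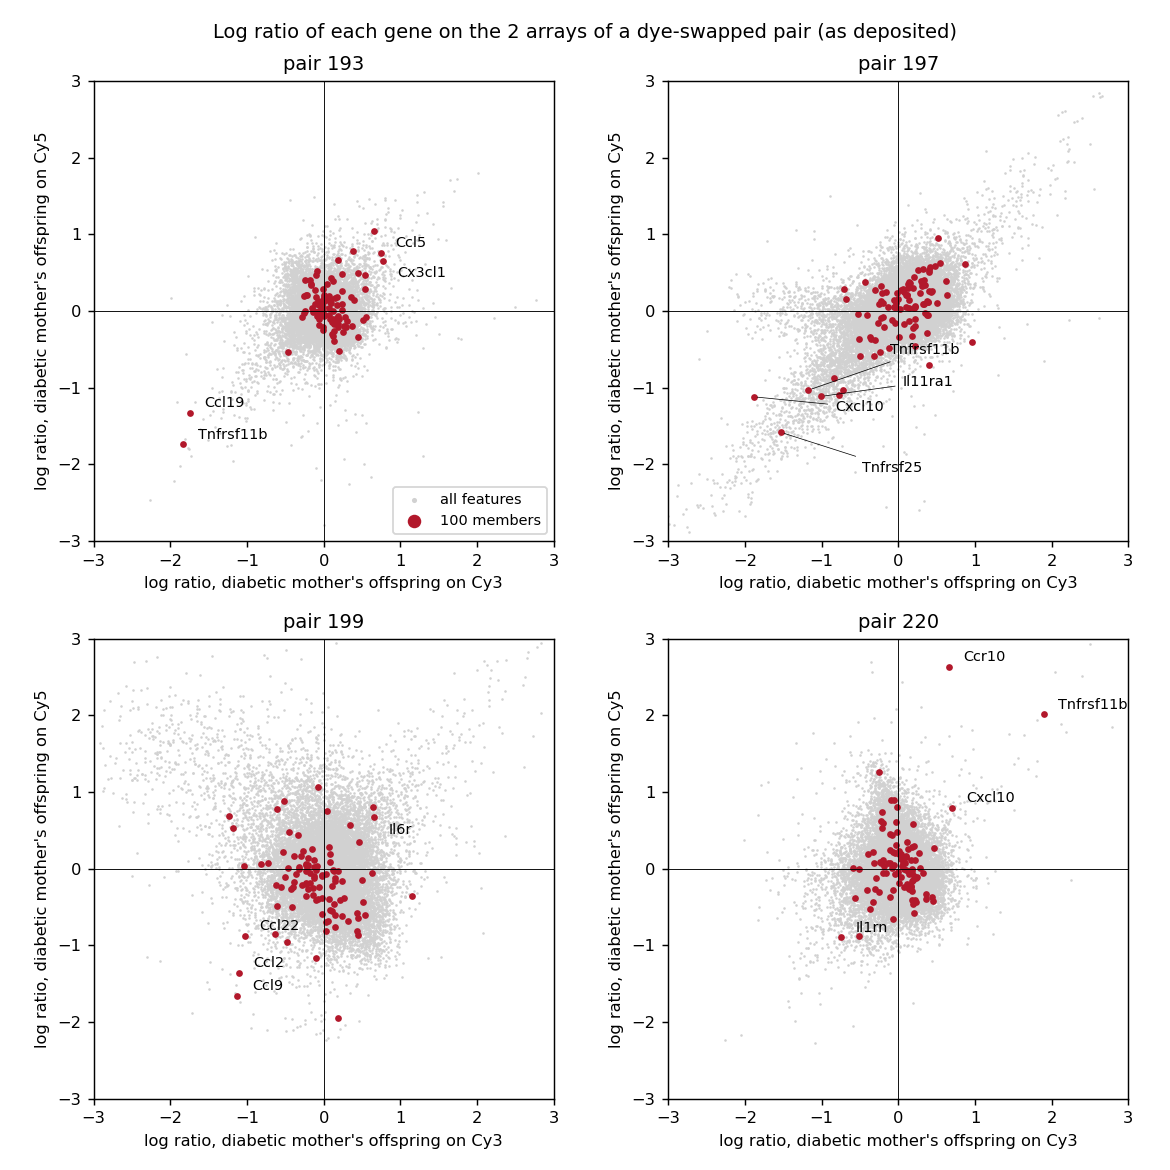
Log ratio of each feature on the array with the DMO animal on Cy3 (x axis) and on Cy5 (y axis), taken as log2, in the 4 dye-swapped pairs. Grey points are all features and red points the 100 cytokine, chemokine and receptor genes; features beyond 3 in size are not drawn. Tnfrsf11b lies far out on the diagonal in pairs 193 and 220. The cloud of pair 199 runs against the diagonal over all features (r = -0.19), but not over features with a gene symbol (r = 0.16).

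None of the 100 genes passed the test between the groups over the 5 pairs. limma with Benjamini-Hochberg adjustment over all features called 0 of the 100 genes and 0% of features, and the smallest adjusted p among the 100 genes was 0.926. At an unadjusted limma p under 0.05 were 2 of the 100 genes, against 4.77% of all features. Both had a negative mean, Cxcl6 with a limma p of 0.0302 and Ccl22 with a limma p of 0.0436 before adjustment. The mean over pairs was positive for 42 genes and negative for 58, against 9991 and 9487 of all 19478 features. It exceeded 0.3 in size for 9 of the 100 genes and for 1294 of the 19478 features. The median of the 100 means was -0.019, against 0.0037 over all features. By role, the median of the means was -0.053 for CC chemokines, -0.060 for CXC and CX3C chemokines, 0.0052 for chemokine receptors, -0.016 for interleukins, 0.0089 for interleukin receptors and -0.087 for the TNF receptor superfamily.

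**Figure D2:**
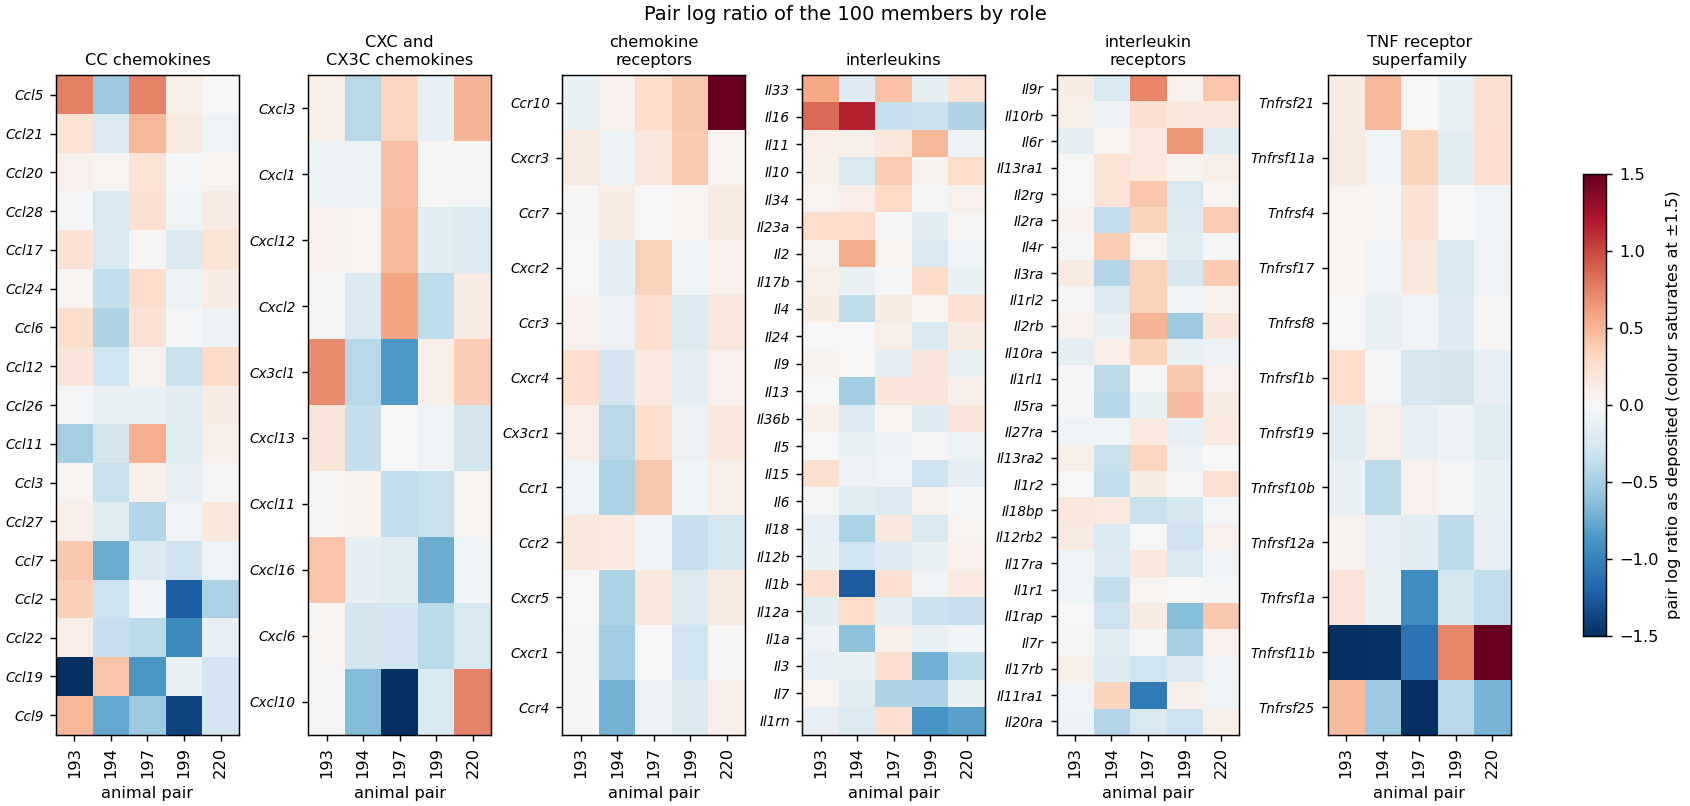
Log ratio of each of the 100 genes (rows, by role, highest mean at the top) in each animal pair (columns), as deposited and taken as log2, with the 2 arrays of a pair averaged. Colours saturate at 1.5 in size. Tnfrsf11b passes from -1.79 for pair 193 to 1.96 for pair 220. The columns of pairs 194 and 199 are mostly blue (76 and 77 of 100 genes negative, against 55.1% and 56.9% of all features).

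The same sign in all 5 pairs was seen in 2 of the 100 genes, against 6.16% of all features. Ccr7, the lymph node homing receptor, averaged 0.062 ± 0.061 with 5 positive pairs (SD, n = 5; limma adjusted p = 0.951). Il13ra1, a subunit of the receptors for interleukins 4 and 13, averaged 0.10 ± 0.075 (SD, n = 5; limma adjusted p = 0.927). Neither was repeated between arrays in every swapped pair: Ccr7 had opposite signs on the 2 arrays of all 4, and Il13ra1 did so in pairs 193 and 199. Il13ra1 was at 0.14 and 0.15 for pair 197, and at 0.18 and 0.00030 for pair 220. The size of such means is below that of the differences between arrays of the same RNA.

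Single pairs held larger ratios. With the same sign on both arrays and over 0.5 in size on each, there were 5 of the 100 genes in pair 193 (1.97% of all features), 10 in pair 197 (9.63%), 6 in pair 199 (3.88%) and 5 in pair 220 (1.94%). On the single array of pair 194, 13 genes passed that size (13.3% of all features). The shares in pairs 193, 199 and 220 lie above those of all features, by 2 or 3 genes each, and those in pairs 194 and 197 lie near them. Each pair compares 1 animal of each group, so these are differences between animals and have no test. Over the 4 swapped pairs these were 18 genes, of which 12 passed in 1 pair. Ccl19, Ccl5 and Cx3cl1 passed in pairs 193 and 197, Cxcl10 and Tnfrsf25 in pairs 197 and 220, and Tnfrsf11b in all 4.

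Of the CC chemokines, Ccl9, Ccl2, Ccl22, Ccl19 and Ccl5 had the largest means. Ccl2 is the main attractant of monocytes through Ccr2. Its log ratio was 0.24 and 0.48 on the 2 arrays of pair 193 (Cy3 first, as throughout), -0.31 for pair 194, -0.20 and 0.11 for pair 197, -1.10 and -1.36 for pair 199, and -0.57 and -0.38 for pair 220. Pair 199 was the lowest and pair 193 the only positive one, and the mean was -0.34 ± 0.59 (SD, n = 5; limma adjusted p = 0.926). Its receptor Ccr2 averaged -0.069 ± 0.23, with 2 pairs positive and 3 negative.

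Ccl9, known in mouse as a ligand of Ccr1, was likewise highest in pair 193 and lowest in pair 199. It was at 0.54 and 0.47 for pair 193, -0.77 for pair 194, -0.50 and -0.59 for pair 197, -1.13 and -1.66 for pair 199, and -0.30 and -0.27 for pair 220. All 4 swapped pairs thus kept their sign on exchange of the dyes. The mean was -0.50 ± 0.69 (SD, n = 5; limma adjusted p = 0.926). Its 2 probes shared the direction in every pair but not the size: in pair 199 they were at -2.07 and -0.71, and in pair 197 at -1.07 and -0.016.

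Ccl22, a ligand of Ccr4 on T cells, was at 0.27 and -0.078 for pair 193, -0.35 for pair 194, -0.24 and -0.54 for pair 197, -1.03 and -0.87 for pair 199, and -0.19 and -0.058 for pair 220. It was negative on both arrays of pairs 197, 199 and 220 and lowest in pair 199. Its mean was -0.34 ± 0.39 (SD, n = 5; limma adjusted p = 0.926), and Ccr4 averaged -0.19 ± 0.31, 1 pair being positive.

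Ccl19, which guides dendritic cells and T cells through Ccr7, followed another order. It was at -1.75 and -1.32 for pair 193, 0.42 for pair 194, -0.71 and -1.03 for pair 197, 0.45 and -0.65 for pair 199, and -0.59 and 0.016 for pair 220. Pairs 193 and 197 were low on both arrays, while the arrays of pairs 199 and 220 differed in sign. Ccl5, a T cell and monocyte attractant, stood out in the same pairs with a positive ratio: 0.74 and 0.76 for pair 193, and 0.87 and 0.61 for pair 197. It was at -0.54 for pair 194, at 0.087 and 0.089 for pair 199, and at 0.18 and -0.16 for pair 220.

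Among the CXC and CX3C chemokines, Cxcl10 had the widest range. Cxcl10 is induced by interferon and acts through Cxcr3 on T cells. It was at 0.0053 and -0.049 for pair 193, -0.65 for pair 194, -1.89 and -1.12 for pair 197, 0.14 and -0.60 for pair 199, and 0.70 and 0.80 for pair 220. Pairs 197 and 220 thus lay on opposite sides of 0, on both arrays each. The mean was -0.33 ± 0.83 (SD, n = 5; limma adjusted p = 0.931). The related Cxcl11 was at -0.36 and -0.37 for pair 197 but at 0.44 and -0.37 for pair 220.

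Cx3cl1, fractalkine, was at 0.77 and 0.66 for pair 193, -0.42 for pair 194, -0.84 and -0.87 for pair 197, -0.61 and 0.78 for pair 199, and 0.47 and 0.27 for pair 220. It was positive on both arrays in 2 pairs and negative on both in 1, and the mean was -0.021 ± 0.62 (SD, n = 5; limma adjusted p = 0.997). Its receptor Cx3cr1 averaged 0.0045 ± 0.27. Cxcl12 and its receptor Cxcr4, which hold progenitor cells in their niches, averaged 0.042 ± 0.27 and 0.0058 ± 0.22.

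Cxcl6, a neutrophil attractant, was at 0.26 and -0.19 for pair 193, -0.27 for pair 194, -0.53 and -0.042 for pair 197, -0.56 and -0.24 for pair 199, and -0.11 and -0.37 for pair 220. It was negative on 8 of 9 arrays, with a small mean of -0.23 ± 0.16 (SD, n = 5; limma adjusted p = 0.926).

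Ccl2 and Ccl9 shared their signs over the pairs with other genes of the set. A positive ratio in pair 193 and a negative one in the other 4 pairs was found in 13 of the 100 genes, against 3.47% of all features. The pattern was chosen after the values were seen, so this is a description with no test. The 13 genes were Ccl2, Ccl7, Ccl9, Ccl22, Cxcl6, Cxcl16, Il7, Il15, Il17rb, Tnfrsf1a, Tnfrsf1b, Tnfrsf12a and Tnfrsf25. Only Ccl9 and Tnfrsf25 had these signs on every one of the 9 arrays, 2 of the 100 genes against 0.637% of all features. Without pair 199 the count was 15 (5.28% of all features), and with the opposite sign given to the Cy5 arrays it was 1 (2.39%). In the order of genes that RefSeq gives, Ccl2 and Ccl7 are direct neighbours on chromosome 10, and so are Ccl5 and Ccl9, of which Ccl5 did not have the pattern.

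Of the leukocyte markers measured, only Lyz2, Coro1a and the T cell marker Cd2 had this pattern of signs over the pairs. Lyz2, lysozyme of macrophages and neutrophils, was at 1.21 and 1.16 for pair 193, -0.96 for pair 194, -0.85 and -0.82 for pair 197, -1.53 and -1.48 for pair 199, and -1.18 and -1.40 for pair 220. The leukocyte actin-binding gene Coro1a had pair values of 0.56, -0.38, -0.47, -0.81 and -0.071, in the order of the pair numbers. The other macrophage markers did not follow: Cd68 was positive in pairs 193, 199 and 220, and C1qb was positive in pairs 194, 197 and 199. Over the 13 of 16 macrophage and monocyte markers that were measured, the median was 0.0022, -0.12, 0.053, -0.068 and -0.010 in pairs 193, 194, 197, 199 and 220. Over 9 of 10 pan-leukocyte markers it was 0.17, -0.24, 0.083, -0.22 and -0.071. Among these, Cd48 was at -0.37, 0.41, 0.84, 0.49 and -0.22. In pair 197, 7 of the 9 were positive, Cd53, Cd37 and Laptm5 among them. Coro1a and Lcp2 were negative there, and Lcp2, at -1.17 and -1.05 on its 2 arrays, was the largest of the list in size. The part of these cells in the 13 genes was not tested.

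The κB motif, bound by NF-kappa B, and the interferon-stimulated response element are known in promoters of inducible chemokines, so their letters were looked for in the 300 bases from 250 before to 50 after the start of each gene (RefSeq, GRCr8). Of the 100 genes, 77 had a promoter in the table of 33469. These 77 were counted by gene, and the shares over all were counted by promoter. The κB letters (GGGA, any 2 bases, TTCC, on either strand) were present in 7 of them (Ccl7, Ccr3, Cxcl1, Cxcl10, Cxcl11, Cxcl6 and Il6), against 1.3% of all promoters. The interferon-stimulated letters (TTTC, any 2 bases, TTTC, on either strand) were present in 8 (Ccl19, Cxcl10, Il18bp, Il1rap, Il36b, Il4, Tnfrsf17 and Tnfrsf1b), against 3.92%. Of the 13 genes with these shared signs, 11 had a promoter and 2, Ccl7 and Cxcl6, held the κB letters.

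The promoters of these 2 genes are shown with that of Cxcl10, the chemokine of widest range, which held both motifs. They are written 5′ to 3′ on the strand of the gene, with the matched letters in capitals. Ccl7 lies at chr10:67513845-67514144 (plus strand), Cxcl6 at chr14:17596368-17596667 (minus strand) and Cxcl10 at chr14:15988816-15989115 (plus strand).
Ccl7: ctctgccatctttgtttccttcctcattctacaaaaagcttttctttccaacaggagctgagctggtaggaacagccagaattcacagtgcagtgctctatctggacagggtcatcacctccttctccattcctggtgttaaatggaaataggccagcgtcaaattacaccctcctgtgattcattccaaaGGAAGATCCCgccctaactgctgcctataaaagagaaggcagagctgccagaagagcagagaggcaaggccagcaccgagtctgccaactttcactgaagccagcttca
Cxcl6: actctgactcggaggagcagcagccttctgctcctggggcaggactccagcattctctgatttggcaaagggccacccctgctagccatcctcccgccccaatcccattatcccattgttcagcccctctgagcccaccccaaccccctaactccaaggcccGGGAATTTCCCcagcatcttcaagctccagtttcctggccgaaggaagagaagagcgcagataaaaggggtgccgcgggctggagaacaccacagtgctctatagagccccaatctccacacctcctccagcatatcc
Cxcl10: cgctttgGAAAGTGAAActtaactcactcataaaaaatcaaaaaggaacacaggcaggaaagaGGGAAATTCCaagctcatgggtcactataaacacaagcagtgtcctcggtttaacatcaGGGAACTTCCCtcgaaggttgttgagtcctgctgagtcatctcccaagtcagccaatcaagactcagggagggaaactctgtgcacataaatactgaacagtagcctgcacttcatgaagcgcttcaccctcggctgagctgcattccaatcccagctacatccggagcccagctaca
Ccl7 held 1 match to the κB letters, from -59 to -50 relative to the start of the gene. The 11 capitals of Cxcl6 are 2 overlapping matches, 1 on each strand, from -88 to -78. Cxcl10 held a match to the interferon-stimulated letters from -243 to -234, a κB match from -187 to -178, and an overlapping pair of κB matches from -128 to -118. A match of letters is not evidence that a factor was bound in these aortas, and the 3 genes did not share their order of pairs: Ccl7 was at 0.41 and Cxcl10 at -0.022 for pair 193.

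Of the chemokine receptors, Ccr10, the receptor of Ccl27 and Ccl28, had the largest mean, 0.46 ± 0.69 (SD, n = 5; limma adjusted p = 0.926). It was at -0.013 and -0.21 for pair 193, 0.062 for pair 194, 0.96 and -0.40 for pair 197, 1.15 and -0.35 for pair 199, and 0.66 and 2.63 for pair 220. Only pairs 193 and 220 kept their sign when the dyes were exchanged, and the 2 values of pair 220 were almost 2 apart on the log2 scale. The other receptors spread less: their means lay between -0.19 for Ccr4 and 0.13 for Cxcr3. Of the 12 receptors, 10 were positive in pair 197 (median 0.16, with 60.3% of all features positive). In pair 220 these were 11 (median 0.078, with 53.8% of all features), but only Ccr10, Cx3cr1 and Cxcr5 were positive on both arrays. In each of pairs 194 (median -0.21; 55.1% of all features negative) and 199 (median -0.12; 56.9%), 9 of the 12 were negative, and in pair 193 they split 6 to 6.

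Among the interleukins, Il16 split the pairs in 2. Il16 is a chemoattractant that acts through CD4. It was at 0.66 and 1.04 for pair 193 and at 1.15 for pair 194, and it was negative on all 6 arrays of the other pairs: -0.37 and -0.34 for pair 197, -0.40 and -0.24 for pair 199, and -0.37 and -0.53 for pair 220. The signs held on both arrays in all 4 swapped pairs, and the mean was 0.18 ± 0.76 (SD, n = 5; limma adjusted p = 0.955).

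Il1b and its antagonist took different pairs. Il1b, the secreted interleukin 1 of activated macrophages, was at -1.25 on the single array of pair 194. It was at 0.12 and 0.39 for pair 193, 0.15 and 0.36 for pair 197, -0.10 and -0.020 for pair 199, and 0.17 and 0.12 for pair 220. Both of its probes were low in pair 194, at -1.47 and -1.03. With no second array, the value of pair 194 was not repeated, and Il1r1, the signalling receptor, was at -0.36 there. Il1rn, the antagonist of that receptor, was low on both arrays of pair 220, at -0.75 and -0.89, while its 2 arrays in pair 199 were at 0.19 and -1.95. It was at 0.14 and -0.39 for pair 193, -0.20 for pair 194, and 0.38 and 0.13 for pair 197, with a mean of -0.35 ± 0.48 (SD, n = 5; limma adjusted p = 0.926).

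The other fixed interleukins had small means. Il6 averaged -0.076 ± 0.12, the anti-inflammatory Il10 0.11 ± 0.23, and Il18, which is released with Il1b from the inflammasome, -0.13 ± 0.25 (SD, n = 5 each). Il7, a survival factor of lymphocytes, averaged -0.23 ± 0.22 and was negative in 4 pairs. The 2 probes of the alarmin Il33 differed: the one was at 1.04 for pair 193 and 0.71 for pair 197, and the other at 0.13 and 0.17.

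Interleukin receptors held no mean over 0.3 in size. The largest was that of Il9r, 0.22 ± 0.37, followed by Il20ra at -0.19 ± 0.20 (SD, n = 5 each; limma adjusted p = 0.926 for both). Il11ra1, a receptor subunit for Il11, was set apart by 1 pair: it was at -1.01 and -1.11 for pair 197 and between -0.24 and 0.33 on the other 7 arrays. Il6r was at 0.66 and 0.67 for pair 199 and between -0.27 and 0.20 on the other arrays. As a group, 19 of 25 were positive in pair 197 (median 0.14, with 60.3% of all features). In pair 220 these were 16 (median 0.069, with 53.8% of all features). Of the 16, only Il13ra1, Il1r2, Il1rl1, Il27ra, Il2ra, Il2rb and Il5ra were positive on both arrays. Negative were 18 of the 25 in each of pairs 194 (median -0.21; 55.1% of all features) and 199 (median -0.12; 56.9%), and 13 in pair 193 (46.9%).

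Tnfrsf11b had the widest spread of the 100 genes. It encodes osteoprotegerin, a soluble decoy receptor that vascular smooth muscle secretes and that captures the ligands RANKL and TRAIL; mice without it develop arterial calcification. Its log ratio was -1.83 and -1.74 for pair 193, -1.48 for pair 194, -1.17 and -1.03 for pair 197, 0.65 and 0.81 for pair 199, and 1.90 and 2.01 for pair 220. The 2 arrays of a pair lay close together, also in pair 199, while the pairs ran over a range of 3.74. Pairs 193, 194 and 197 thus lay on one side of 0 and pairs 199 and 220 on the other, so the mean of -0.34 ± 1.61 (SD, n = 5; limma adjusted p = 0.958) describes none of them.

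The ligands of osteoprotegerin varied less. Tnfsf11, RANKL, had pair values of 0.084, 0.024, -0.39, -0.32 and -0.11 in the order of the pair numbers, and Tnfsf10, TRAIL, had 0.25, -0.22, 0.23, -0.38 and 0.11. The RANKL receptor Tnfrsf11a averaged 0.097 ± 0.21 (SD, n = 5). Beside Tnfrsf11b, the median of 10 contractile smooth muscle markers was -0.75, 0.11, -0.80, 0.076 and 0.037 in pairs 193, 194, 197, 199 and 220. That of 8 fibroblast markers was -0.32, -0.37, 0.23, 0.32 and -0.010. Smooth muscle markers were thus low in 2 of the 3 pairs where Tnfrsf11b was low, and in pair 220, where it was highest, both lists were near 0. Their part in the values of Tnfrsf11b was not tested.

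Tnfrsf25, death receptor 3, a costimulator of T cells, had the largest mean of the set in size, -0.55 ± 0.72 (SD, n = 5; limma adjusted p = 0.926). It was at 0.45 and 0.50 for pair 193, -0.55 for pair 194, -1.53 and -1.58 for pair 197, -0.62 and -0.21 for pair 199, and -0.51 and -0.88 for pair 220. All swapped pairs kept their sign, and pair 193 alone was positive. Tnfrsf1a, the widely expressed TNF receptor, was at 0.51 and -0.11 for pair 193, -0.10 for pair 194, -0.77 and -1.09 for pair 197, -0.10 and -0.41 for pair 199, and -0.073 and -0.66 for pair 220. Only pair 197 passed 0.5 in size on both arrays. Tnfrsf1b, the TNF receptor more typical of leukocytes, averaged -0.081 ± 0.22, and Tnfrsf12a, the receptor of TWEAK, -0.15 ± 0.16 (SD, n = 5 each).

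**Figure D3:**
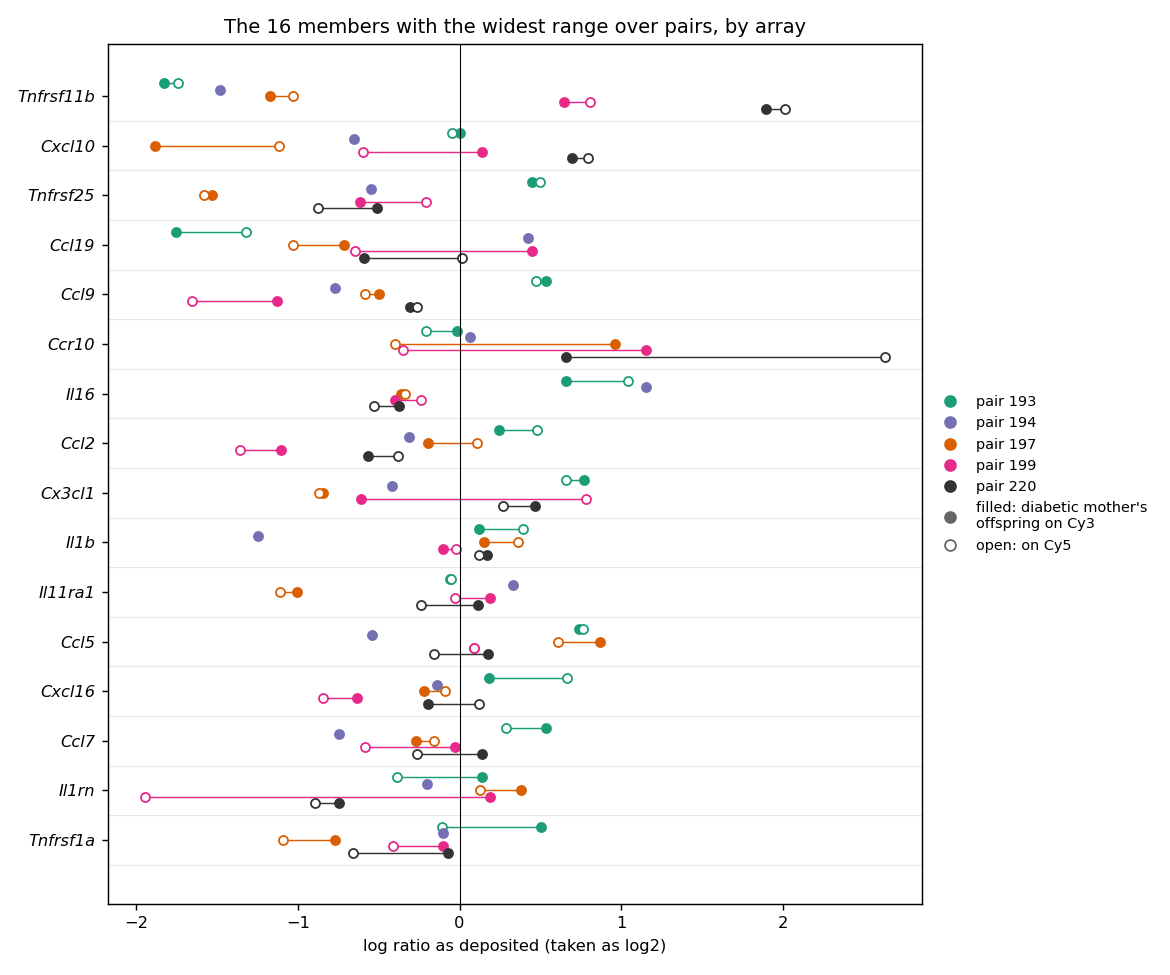
Log ratio on each array (x axis, as deposited and taken as log2) for the 16 genes with the widest range over pairs, by animal pair (colour) and dye orientation (filled, DMO animal on Cy3; open, on Cy5), with a line joining the 2 arrays of a pair. The 2 arrays lie close together for Tnfrsf11b in every pair and far apart for Ccr10 in pairs 197, 199 and 220.

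The sign of some genes followed the dye. For 4 of the 100 genes, every array with the DMO animal on Cy3 had one sign and every array with it on Cy5 had the other, against 2.87% of all features: Il1r1, Il4r, Il7r and Tnfrsf19. Tnfrsf19, a receptor of the TNF superfamily known from the developing nervous system and skin, had 0.23 as the mean of its Cy3 arrays and -0.53 as that of its Cy5 arrays. Il4r had 0.27 and -0.33, and Il7r -0.40 and 0.22. From the values of these 4 genes alone, an effect of the dye and arrays not yet turned to a common direction cannot be told apart. On the same arrays, Tnfrsf11b kept its sign in every swapped pair, negative in pairs 193 and 197 and positive in pairs 199 and 220. Whether the Cy5 arrays had been turned was not tested. If the Cy5 arrays were given the opposite sign, 24 of the 100 genes would have the same sign in all 5 pairs, against 19.97% of all features, and limma would again call 0 (smallest adjusted p among the 100 genes 0.173). Tnfrsf11b would then be at -0.046, -1.48, -0.071, -0.082 and -0.058, so its large values would remain only on the unswapped array of pair 194.

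Pairs 194 and 199 were shifted as a whole. In pair 194, 76 of the 100 genes were negative (median -0.20), where 55.1% of all features were negative on that array (median -0.033). In pair 199, 77 were negative for the mean of the 2 arrays (median -0.15), where 56.9% of all features were negative (median -0.041). By array these were 61 of 100 genes (48.9% of all features) with the DMO animal on Cy3 and 67 (55.2%) with it on Cy5. In pairs 193, 197 and 220, 37, 37 and 44 genes were negative, against 46.9%, 39.7% and 46.2% of all features. The shift was shared by all 6 roles in pair 194, with medians between -0.30 for CC chemokines and -0.081 for the TNF receptor superfamily, and T and NK cell markers had a median of -0.18 there. Single negative values of modest size in these 2 pairs, such as the -0.31 of Ccl2 in pair 194, lie near this shift.

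The adipocyte markers varied most of the 10 marker lists, with medians of -0.069, 0.13, 1.90, 2.23 and -0.011 in pairs 193, 194, 197, 199 and 220 (11 of 14 measured). Adipose tissue surrounds the aorta and makes several of these cytokines. The medians of the roles did not stand apart in both pairs with a high adipocyte median: CC chemokines were at 0.048 for pair 197 and -0.12 for pair 199. Endothelial markers (10 of 12 measured) had medians of 0.15, 0.20, 0.38, -0.075 and 0.030. B cell, neutrophil and mast cell lists had 2, 3 and 9 genes measured, with the largest medians in size at 0.12, 0.46 and 0.29. The part of adipose, endothelial or leukocyte content in the values above was not tested.

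**Figure D4:**
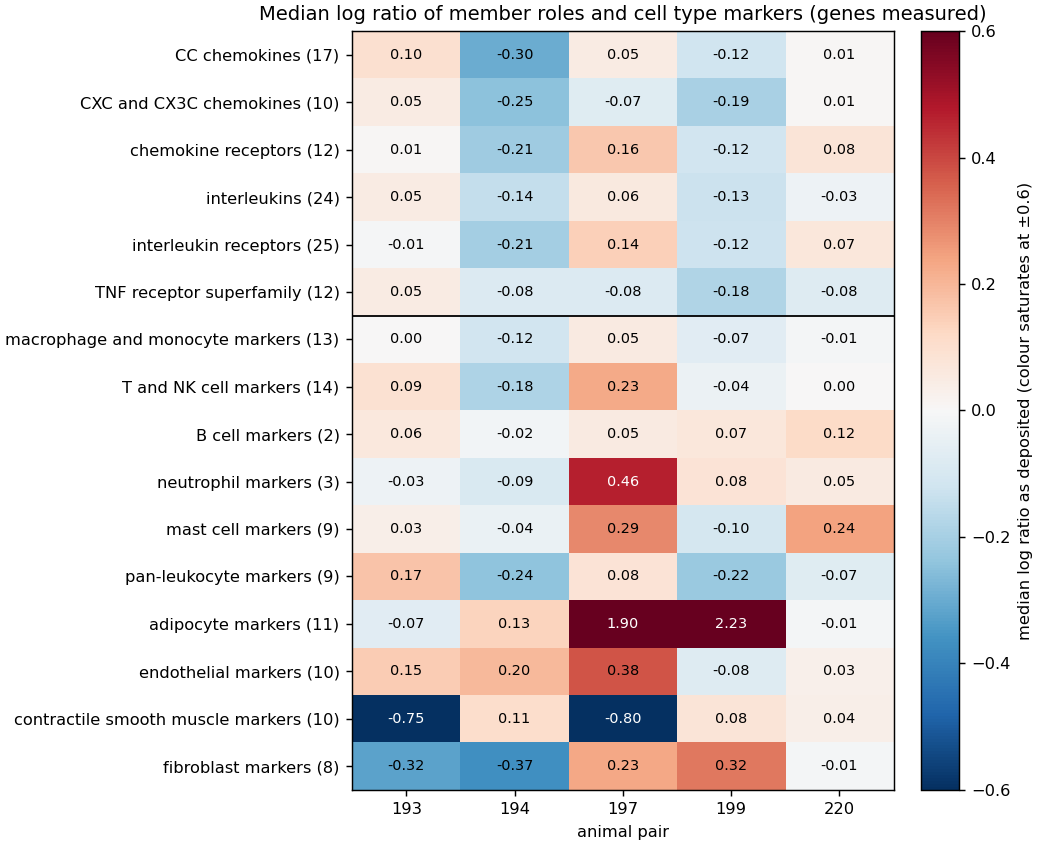
Median log ratio (as deposited, taken as log2) in each animal pair (columns) over the genes of each role and over 10 lists of cell type markers (rows, genes measured in parentheses); colours saturate at 0.6 in size. Role medians stay between -0.30 and 0.16, while adipocyte markers reach 1.90 and 2.23 in pairs 197 and 199 and contractile smooth muscle markers -0.75 and -0.80 in pairs 193 and 197.

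Other genes of cytokine and chemokine signalling were looked at as a list of 85, of which 58 were measured. limma called 0 of the 58 (smallest adjusted p 0.926), and 2, Lif and Ngfr, had an unadjusted p under 0.05, near the 4.77% of all features. The mean over pairs was positive for 31 and negative for 27. The same sign in all 5 pairs was seen in 4 of the 58, near the 6.16% of all features: Ltb, Lif, Stat2 and Nfkb1, all positive. These signs did not hold on every array. Ltb was positive on every Cy3 array and negative on every Cy5 array, and Stat2 changed sign in pairs 193, 199 and 220. On the 2 arrays, Lif was at 0.89 and -0.45 for pair 199, and Nfkb1 at -0.075 and 0.17 for pair 193. Both kept their sign in the other swapped pairs. Lif, a cytokine of the interleukin 6 family, was at 0.17, 0.20, 0.39, 0.22 and 0.10, and Nfkb1, the p50 subunit of NF-kappa B, at 0.046, 0.19, 0.17, 0.21 and 0.085, in the order of the pair numbers. Nfkbia, an inhibitor and a known target of NF-kappa B, was at -0.00031, 0.78, -0.89, -0.29 and -0.65. Ackr3, the scavenger receptor of Cxcl12, was at -1.01 for pair 193 and at 0.27, 0.88, 0.60 and 0.31 in the other pairs, whereas Cxcl12 itself lay between -0.21 and 0.47.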

How the data were processed

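RNA was extracted from thoracic aorta with Trizol, per the labels. Deposited values are log ratios taken as log2, with a mean of 0 on every array as read from the values. Not given in the sources used here were the base and direction of the ratio, the scanner's software, and any correction or normalization by the authors; signals were not used, and so dim probes were not filtered. The series' design text speaks of 10 samples, 1 of which was not analysed here.

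Of 22575 features, 12750 had 1 gene symbol in the platform annotation, 5 several and 9820 none. Probes of a symbol were averaged, and the 2 dye orientations of an animal pair were averaged to 1 replicate. The 5 pair values were tested against 0 with limma 3.58.1 in R 4.3.3 (lmFit, eBayes), with Benjamini-Hochberg adjustment over 19478 features at 0.05, and the procedure was tested on simulated data. The number of arrays limits the precision, and p-values measure the spread between these animal pairs.

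Genes, lists and rules were chosen with earlier results of these data known. The 35 genes named by rule were 18 fixed genes, the 2 of largest mean in each role, those of 1 sign in all pairs, the 3 largest in each pair, and the 3 of largest dye difference among those that followed the dye. Other genes were named after their values were seen. Alternatives were leaving out pairs, turning the Cy5 arrays, single orientations, the pair as replicate block, centring, scaling, single probes, named features only and robust moderation.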

Additional observations from a re-analysis of the deposited data

Results flagged for a closer look

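Of the 100 genes, 2 of the 35 named ones had an animal pair far from the other 4 by Dixon's criterion at the 95% level, and chance marks about 1 in 20 such groups. Il1b was at -1.25 in pair 194, and the gap to its nearest pair was 0.79 of the whole range. Il1r1 was at -0.36 in pair 194, with a gap of 0.73 of the range. Both values come from the pair with only 1 array here, where 76 of the 100 genes were negative (55.1% of all features). Neither was thus repeated in the other dye orientation.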

How the results depend on the processing

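limma called 0 features and 0 of the 100 genes in all 14 alternatives. At an unadjusted limma p under 0.05 were 450 (of 9653 tested) to 3131 (of 19478) features and 0 to 16 of the genes. The 0 was without pair 199, where 612 of 19478 features passed, and the 16 with the Cy5 arrays turned, where 3131 did. The smallest adjusted p over all features was 0.117, with the Cy5 arrays turned. The number of genes of 1 sign over all pairs moved from 2 (6.16% of all features) to between 8 and 16 without 1 pair (10.4% to 15.2%). It was 24 with the Cy5 arrays turned (19.97% of all features), 10 and 26 on the Cy3 or Cy5 arrays alone (12.0% and 22.0%), and 4 with arrays scaled (6.40%). Fewer pairs make the same sign easier to reach. The 26 combinations of gene and swapped pair over 0.5 in size on both arrays (18 genes) became 5 with the Cy5 arrays turned, 53 at a size of 0.3 and 9 at a size of 1. The 13 genes positive in pair 193 alone (3.47% of all features) became 1 with the Cy5 arrays turned (2.39%) and 11 on the Cy3 arrays alone (3.68%). On the Cy5 arrays alone they became 6, near the 5.51% of all features. Without 1 of the other pairs they became 15 to 18, against 5.28% to 6.95% of all features. These settings were added after seeing the data.

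With the Cy5 arrays turned, 12 means changed sign: Tnfrsf19 0.33, Il9r -0.23, Tnfrsf12a 0.23, Il10 -0.20, Tnfrsf1a 0.16, Il1rn 0.27, Cx3cr1 -0.10, Cxcl12 -0.067, Ccl19 0.12, Cxcr4 -0.047, Ccl5 -0.051 and Il6r -0.0088. On the Cy3 arrays alone, 5 did: Tnfrsf19 0.23, Tnfrsf12a 0.11, Il10 -0.046, Cxcl12 -0.033 and Cx3cr1 -0.013. On the Cy5 arrays alone, 10 did: Il4r -0.33, Il7r 0.22, Il1b 0.21, Il1r1 0.11, Cx3cl1 0.21, Il6 0.099, Ccr4 0.058, Tnfrsf1b 0.050, Il16 -0.016 and Tnfrsf11b 0.013. Cx3cl1 was at 0.056 with arrays scaled and 0.019 with the pair as replicate block, where the median of the 100 means was 0.0038 and no call changed. Leaving out 1 pair turned 10 means, with ranges of -0.91 to 0.025 for Tnfrsf11b, -0.23 to 0.15 for Il1b, -0.20 to 0.19 for Cx3cl1, -0.069 to 0.33 for Il16, -0.046 to 0.096 for Il4r, -0.065 to 0.10 for Cxcl12, -0.060 to 0.11 for Cx3cr1, -0.054 to 0.078 for Cxcr4, -0.034 to 0.17 for Il6r and -0.13 to 7.1e-05 for Ccr2. The cause was not tested. Centring, single probes, named features only and robust moderation turned no mean.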
